A study of Mus musculus with 8 samples.

Results

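The 10 genes described here encode small heat shock proteins (*Cryab*, *Hspb1*, *Hspb2*, *Hspb7*, *Hspb8*) and the cytosolic HSP70 system (*Hspa1a*, *Hspa1b*, *Hspa8*, *Hsph1*, *Dnajb1*). They were chosen by name for their function, out of 55487 gene identifiers with counts, by a rule that uses no measured value but was set with earlier results of these data known. Their share of called genes is therefore a description beside that of all genes and not a blind comparison. All 10 were found, and 9 of them were among the 12060 genes with enough counts to be tested. *Hspb7* was not.

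Muscle stem cells (MuSCs) were sorted by FACS from mice labelled old and cultured for 72 hours in growth medium. The gate described in the methods for mouse MuSCs was negative for CD31, CD11b, CD45 and Sca1 and positive for CD34 and α7-integrin. Each of 4 pools of 2 mice was split between vehicle (1% DMSO) and NAM/PN, the combination of nicotinamide and pyridoxine, for which the labels give 1 mM without a value for each compound. This gave 8 libraries, 4 with vehicle and 4 with NAM/PN, and no library of young or untreated cells was analysed here. The mice were wild-type males according to the study's methods, and a pool number stands for the same mice in both conditions. RNA was read from the 3′ end of transcripts, and levels are given as CPM, counts scaled to a common library size after normalization by the trimmed mean of M-values.

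Small heat shock proteins hold unfolding proteins in a soluble form without using ATP, and several of them are abundant in skeletal muscle, where they bind desmin, titin and actin filaments. HSP70 proteins fold or release such clients in an ATP cycle that is started by J-domain proteins and reset by nucleotide exchange factors. Heat shock factor 1 switches on many genes of both groups during stress, while HSC70, the product of *Hspa8*, is also made constantly. Several muscle small heat shock proteins are also known to accumulate as myoblasts differentiate.

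Promoter sequences were available from RefSeq (GRCm38.p6) for 7 of the 10 genes, and they were searched in the 250 bases before the RefSeq start nearest to the GENCODE start for a heat shock element, written as GAANNTTC or TTCNNGAA, the letters that heat shock factors bind. Both forms read the same on the other strand. Of 32851 promoters of the same length, 12.8% held at least 1 match. Among the 7 genes, *Hspb1* held 2 matches, *Hspa1a*, *Hspa1b* and *Hsph1* held 1 each, and *Hspb7*, *Hspb8* and *Dnajb1* held 0. The 150 bases next to the start are shown, 5′ to 3′ with the matches in capitals, for 3 genes with a match and for *Hspb8*, the gene with a promoter that passed the test of NAM/PN against vehicle.
*Hspb1*, chr5:135887769-135887918, plus strand: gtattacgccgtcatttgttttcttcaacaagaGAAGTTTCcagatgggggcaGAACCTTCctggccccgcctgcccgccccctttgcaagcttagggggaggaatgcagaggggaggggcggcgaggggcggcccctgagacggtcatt
*Hspa1a*, chr17:34972157-34972306, minus strand: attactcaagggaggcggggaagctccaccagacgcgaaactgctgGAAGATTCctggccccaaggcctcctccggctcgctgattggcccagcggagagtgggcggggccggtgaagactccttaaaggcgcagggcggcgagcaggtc
*Hsph1*, chr5:149636337-149636486, minus strand: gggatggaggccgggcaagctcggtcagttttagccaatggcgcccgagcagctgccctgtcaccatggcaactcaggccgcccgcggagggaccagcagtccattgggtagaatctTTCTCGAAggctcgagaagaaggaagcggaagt
*Hspb8*, chr5:116422865-116423014, minus strand: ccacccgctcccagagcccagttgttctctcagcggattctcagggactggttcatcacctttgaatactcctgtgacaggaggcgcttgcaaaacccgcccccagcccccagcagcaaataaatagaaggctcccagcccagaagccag

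The promoter of *Hspa1b* was identical to that of *Hspa1a* at 247 of 250 aligned bases (98.8%). The E-box CANNTG, the letters bound by MYOD and myogenin, was found in 66.2% of all promoters, and among the 7 genes it had 2 matches each in *Hsph1* and *Hspb1*, 1 each in *Hspb7*, *Hspb8* and *Dnajb1*, and 0 in *Hspa1a* and *Hspa1b*. Motifs were searched separately, so that matches to different motifs may share bases. For *Hsph1*, 40 bases of the window, with the heat shock element match, lay inside the gene as GENCODE annotates it, while 0 bases did so for the other 6 genes. A match or its absence describes these letters in this window only.

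With NAM/PN, *Cryab* and *Hspb8* fell, each to a little under 0.5 of its vehicle level, and no gene of the HSP70 system passed the test. The fold was 0.427 for *Cryab* and 0.464 for *Hspb8*. Thus 2 of the 9 tested genes passed, both lower, whereas 1.28% of all 12060 tested genes passed in either direction, 0.995% lower and 0.282% higher. The median log2 fold change was -1.17 over the 4 tested small heat shock protein genes and 0.06 over the 5 genes of the HSP70 system, beside -0.002 over all tested genes. The summed level of the 5 small heat shock protein genes was between 608 and 954 CPM with vehicle and between 251 and 471 CPM with NAM/PN. The summed level of the 5 HSP70 system genes was between 351 and 561 CPM with vehicle and between 599 and 748 CPM with NAM/PN. The sums of both groups thus did not overlap between conditions and lay in opposite directions. Few genes carried them, mainly *Hspb8* and *Cryab* in the first sum and *Hspa8* and *Hsph1* in the second, in which *Hspa8* was not called and *Hspa1a* and *Hspa1b* had log2 fold changes below 0. At an unadjusted p under 0.05, 2 small heat shock protein genes and 1 HSP70 system gene, *Hspa8*, were below the threshold in edgeR, and DESeq2 and voom each called the same number of each group after adjustment. In bulk RNA, fewer cells that express a gene and less of its RNA per cell cannot be told apart.

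**Figure D1:**
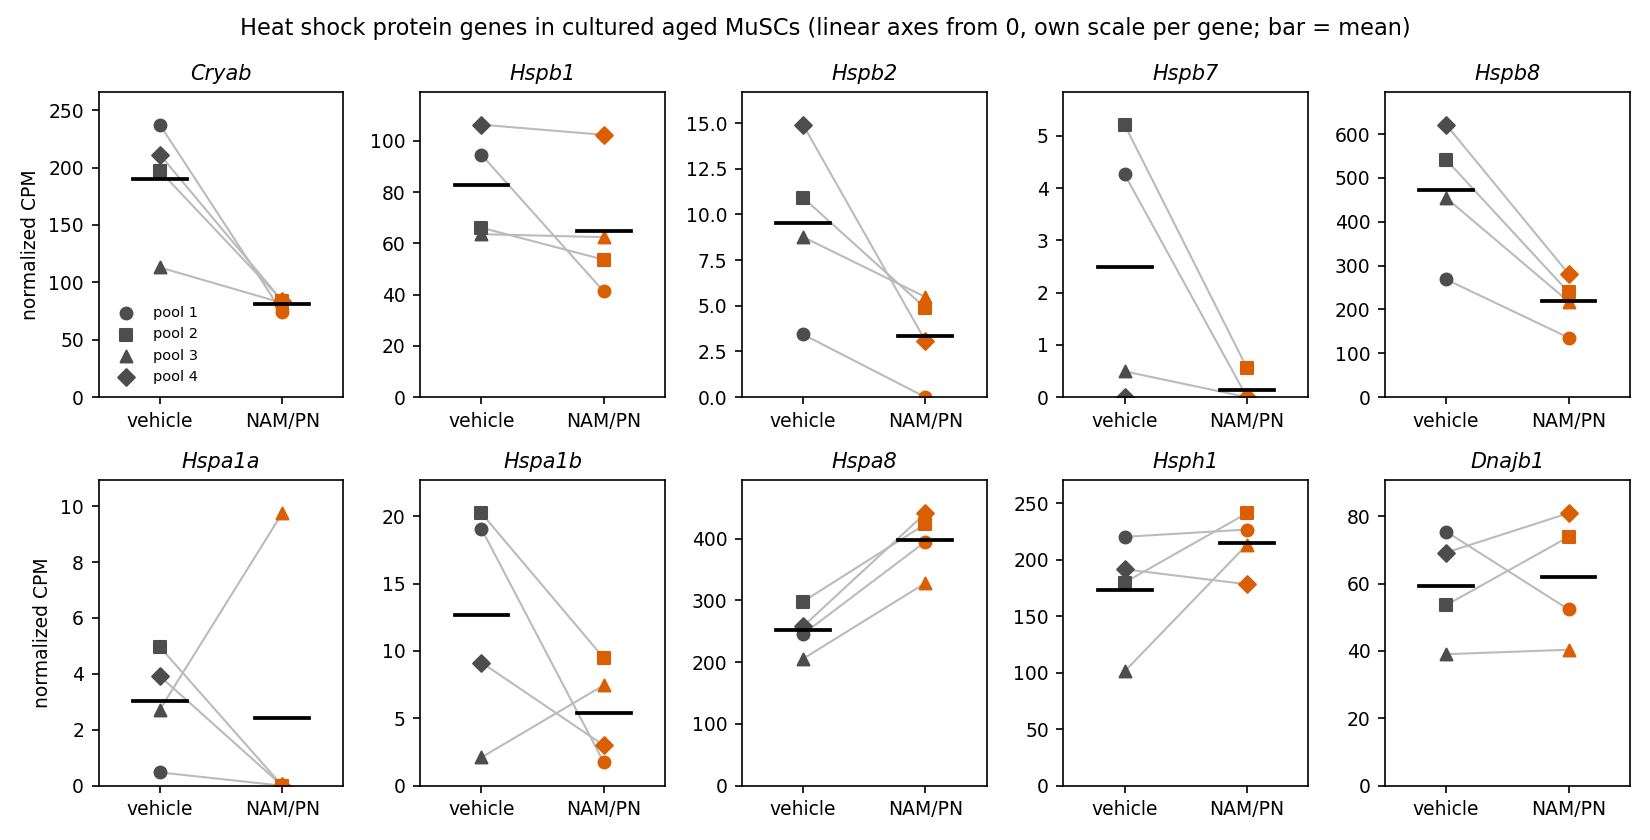
Normalized CPM (vertical axes, linear from 0, with its own scale for each gene) of the 10 heat shock protein genes in each library. Dark symbols are vehicle, orange symbols NAM/PN, grey lines join libraries of the same pool and black bars are means of 4 libraries. *Cryab* falls to between 74.0 and 84.2 CPM in all NAM/PN libraries, *Hspb8* falls by a similar factor in each pool, and *Hspa8* is above every vehicle library in all NAM/PN libraries.

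*Cryab* encodes αB-crystallin, a small heat shock protein that binds desmin and other filament proteins in muscle. Its level was 237, 197, 113 and 211 CPM in vehicle libraries 1 to 4 and 74.0, 84.2, 82.1 and 83.8 CPM in NAM/PN libraries 1 to 4. The conditions did not overlap, and the NAM/PN libraries lay close together while vehicle 3 lay below the other vehicle libraries. The mean fell from 189.6 ± 53.7 CPM (SD, n = 4) to 81.0 ± 4.76 CPM (SD, n = 4), with a log2 fold change of -1.23 ± 0.21 (SE), a 95% interval from -1.68 to -0.78 and an adjusted p of 0.00397 by edgeR. *Cryab* was lower in 4 of 4 pools, by between 0.46 and 1.68 on the log2 scale, where pool 3 gave the smallest difference. Its adjusted p rose to 0.104 when pool 1 was left out and to 0.0936 when pool 2 was left out, with log2 fold changes of -1.06 and -1.23.

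*Hspb8* encodes a small heat shock protein that joins BAG3 and HSP70 in chaperone assisted autophagy. Its level was 269, 542, 454.5 and 622 CPM with vehicle and 136, 239.5, 218 and 282 CPM with NAM/PN, in the order of the pools. Here the conditions overlapped, since NAM/PN 4 lay above vehicle 1, but pool 1 was lowest in both conditions and each NAM/PN library lay well below the vehicle library of its pool. The vehicle mean of 472 ± 152 CPM (SD, n = 4) compared with 219 ± 61.3 CPM (SD, n = 4) after NAM/PN. *Hspb8* fell with a log2 fold change of -1.11 ± 0.24 (SE), a 95% interval from -1.61 to -0.60 and an adjusted p of 0.0208 by edgeR. The differences within pools were between -1.18 and -0.98 on the log2 scale, the narrowest range among the 9 tested genes. The call was lost in 8 of the 12 fits with fewer libraries, while the direction and size of the difference were kept: the adjusted p was 0.111 without vehicle 2, 0.128 without vehicle 4, 0.0993 without NAM/PN 1, 0.0599 without NAM/PN 2 and 0.0697 without NAM/PN 3. It was 0.257, 0.104 and 0.0799 without pools 2, 3 and 4, with log2 fold changes between -1.30 and -0.94 over all 12 fits that left out a library or a pool.

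*Hspb1* encodes HSP25 (HSP27 in humans), which acts on actin filaments and is phosphorylated under stress. Its level was 94.6, 66.1, 63.6 and 106 CPM with vehicle and 41.2, 53.6, 62.4 and 102 CPM with NAM/PN. The NAM/PN library was the lower one in 4 of 4 pools, yet the conditions overlapped widely and the differences in pools 3 and 4 were close to 0 (-0.03 and -0.05 on the log2 scale). The log2 fold change of *Hspb1* was -0.35 ± 0.27 (SE), with a 95% interval from -0.91 to 0.22 and an adjusted p of 0.820 by edgeR. It moved to -0.18 without NAM/PN 1, -0.11 without pool 1 and -0.21 without vehicle 4, and to -0.66 without NAM/PN 4 and -0.63 with voom, in each case without passing the test.

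*Hspb2* and *Hspb7* encode small heat shock proteins found mainly in heart and skeletal muscle, and both had few counts. The level of *Hspb2* was 3.43, 10.9, 8.77 and 14.9 CPM with vehicle and 0, 4.88, 5.48 and 3.08 CPM with NAM/PN. It was lower in 4 of 4 pools, with overlapping conditions, a log2 fold change of -1.50 ± 1.03 (SE) and an adjusted p of 0.780 by edgeR. The estimate of *Hspb2* moved to -2.13 with pools as a block (adjusted p of 0.654) and to -2.79 with voom (0.365). *Hspb7* had 36, 42, 4 and 0 counts in vehicle libraries and 0, 4, 0 and 0 counts in NAM/PN libraries, too few for the filter. The 2 libraries with more than 4 counts of *Hspb7* were the vehicle libraries of pools 1 and 2. A fit without the filter gave *Hspb7* an adjusted p of 0.486 by edgeR. The floor used here, 3 counts per library, was equal to 0.280 to 0.457 CPM and covers counting error only.

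Of the HSP70 system, *Hspa8* encodes the constitutive HSC70, which folds new proteins and uncoats clathrin. Its level was 245, 298, 206 and 258 CPM with vehicle and 395, 424, 328 and 441 CPM with NAM/PN. All NAM/PN libraries lay above all vehicle libraries, an order shared by 2.79% of all tested genes, whereas the opposite order seen for *Cryab* was shared by 4.42%. Pool 3 was lowest in both conditions, and the differences within pools were between 0.51 and 0.77 on the log2 scale. The vehicle mean of 252 ± 38.2 CPM (SD, n = 4) compared with 397 ± 49.7 CPM (SD, n = 4) after NAM/PN. The log2 fold change of *Hspa8* was 0.66 ± 0.17 (SE), with a 95% interval from 0.31 to 1.01. *Hspa8* did not pass the threshold of 0.05, with an adjusted p of 0.0651 by edgeR (0.0644 with pools as a block). It passed in the alternative fits with DESeq2 (0.00341), a robust fit (0.0440) or no filter on low counts (0.0323). It also passed with voom, run with library quality weights and a correlation within pools (0.0232). In none of the 12 fits that left out a library or a pool did it pass.

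*Hsph1* encodes HSP110 (HSP105), a nucleotide exchange factor of HSP70. Its level was 220.2, 179.8, 101 and 192 CPM with vehicle and 227, 241, 213 and 178 CPM with NAM/PN. Vehicle 3 stood below the other 7 libraries, which overlapped between conditions. The log2 fold change of *Hsph1* was 0.31 ± 0.21 (SE), with a 95% interval from -0.13 to 0.76 and an adjusted p of 0.777 by edgeR, and without vehicle 3 it was 0.12. *Dnajb1*, which encodes a J-domain protein that delivers clients to HSP70, had 75.4, 53.6, 39.0 and 69.2 CPM with vehicle and 52.3, 73.8, 40.4 and 80.9 CPM with NAM/PN. *Dnajb1* was higher with NAM/PN in pools 2, 3 and 4 and lower in pool 1, with overlapping conditions. The log2 fold change of *Dnajb1* was 0.06 ± 0.27 (SE) with a 95% interval from -0.50 to 0.62.

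*Hspa1a* and *Hspa1b* encode the stress-inducible HSP70, with almost the same protein from 2 neighbouring genes. Few counts were found for either. *Hspa1b* had 19.1, 20.2, 2.10 and 9.14 CPM with vehicle and 1.72, 9.47, 7.46 and 2.99 CPM with NAM/PN, lower in pools 1, 2 and 4 and higher in pool 3. Its log2 fold change was -1.23 ± 0.77 (SE), as large as that of *Cryab* but with a 95% interval from -2.83 to 0.38 and an adjusted p of 0.743 by edgeR. *Hspa1a* had 0.474, 4.96, 2.72 and 3.92 CPM with vehicle and was at 0 in NAM/PN 1, 2 and 4, against 9.75 CPM in NAM/PN 3. A single NAM/PN library thus held every *Hspa1a* count of that condition, and the log2 fold change of *Hspa1a* was -0.32 ± 1.78 (SE), with an adjusted p of 0.990 by edgeR and a sign that changed when libraries were left out. The fitted value of *Hspa1a* also moved to -4.98 with pools as a block (adjusted p of 0.691) and to -3.19 with voom (0.517). With the counts of the pair summed, the level was 19.5, 25.2, 4.82 and 13.1 CPM with vehicle and 1.72, 9.47, 17.2 and 2.99 CPM with NAM/PN. The sum had a log2 fold change of -1.001 ± 0.69 (SE) and an adjusted p of 0.780.

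**Figure D2:**
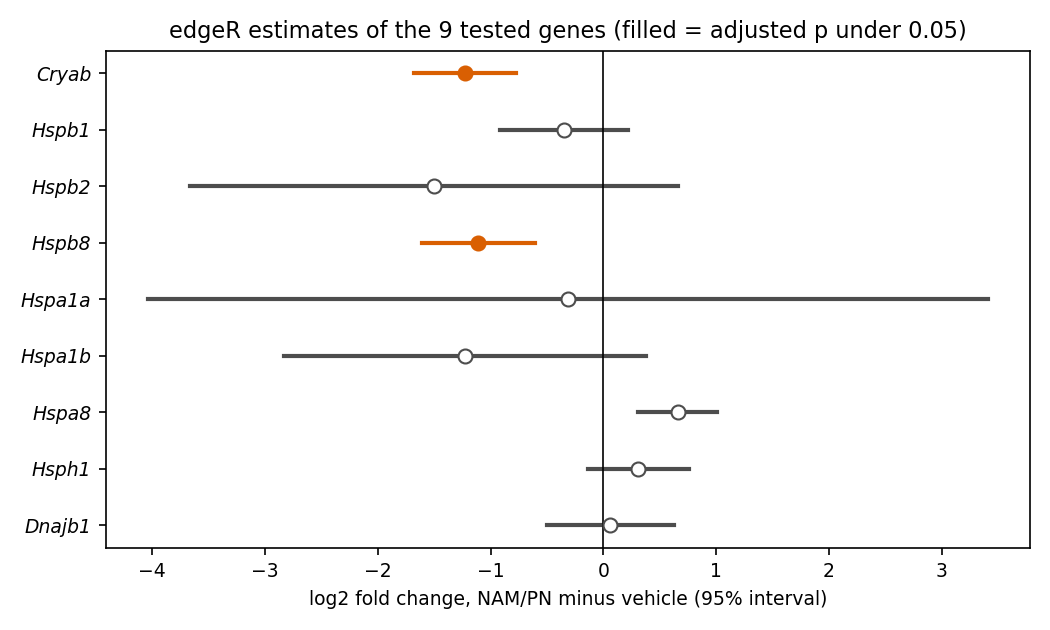
Log2 fold change (horizontal axis, NAM/PN minus vehicle) of the 9 tested genes with 95% intervals from edgeR (lines); filled orange points have an adjusted p under 0.05. The intervals of *Cryab*, *Hspb8* and *Hspa8* do not include 0, *Hspa8* is on the higher side with an adjusted p of 0.0651, and the intervals of *Hspb2*, *Hspa1a* and *Hspa1b* are several log2 units wide.

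Library totals were between 6472484 and 10163101 counts. Vehicle 3 stood apart by the share of counts on the most counted gene, a ribosomal RNA gene, at 18.7% against 9.09 to 9.59% in the other vehicle libraries, and NAM/PN 4 by a low share of 5.22%. The mitochondrial share of counts was 7.30, 4.73, 3.73 and 7.54% with vehicle and 4.07, 4.55, 4.74 and 2.56% with NAM/PN, lowest among vehicle libraries in vehicle 3, as was *Cryab*. Its part in the fall of *Cryab* was not tested. Vehicle 3 was the lowest vehicle library for 6 of the 10 genes (*Cryab*, *Hspb1*, *Hspa1b*, *Hspa8*, *Hsph1* and *Dnajb1*). Without vehicle 3 the log2 fold change was -1.41 for *Cryab*, -1.13 for *Hspb8* and 0.57 for *Hspa8*, and that of *Dnajb1* turned to -0.10. With vehicle 3 and NAM/PN 4 both left out, *Cryab* (-1.43, adjusted p of 5.94e-05 by edgeR) and *Hspb8* (-1.28, adjusted p of 0.00639) still passed, *Hspb1* moved to -0.77 with an adjusted p of 0.128, and *Hspa8* was at 0.51 with an adjusted p of 0.0777.

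Several of these genes share sequence or position with others on the GRCm38 assembly. *Cryab* (chr9:50751325-50756636, plus strand) and *Hspb2* (chr9:50751078-50752354, minus strand) overlap by 1030 bases of their gene bodies in opposite directions, and 252 bases are exonic in both, which is 17% of the exon bases of *Cryab* and 30.2% of those of *Hspb2*. The strand setting of the counting was not given in the sources used here, so counts of *Hspb2* in particular are uncertain. *Hspa1b* (chr17:34956436-34959238) and *Hspa1a* (chr17:34969190-34972156), both on the minus strand, lie 9951 bases apart, and 564 exon bases of *Hspa1a* (19%) overlap the gene *Gm20481* on the other strand. Although their coding sequences are near-identical, no word of 50 bases in the last 400 bases of the longest *Hspa1a* or *Hspa1b* coding transcript was found in a transcript of another gene.

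For *Hspa8* (chr9:40800984-40810087, plus strand), 76.6% of such words also lay in transcripts of 11 other genes. The counts on those 11 genes together came to between 0.0832 and 0.756% of the *Hspa8* count in each library. The treatment of multiply aligned reads was not given. If such reads were dropped, these counts would be low whatever *Hspa8* lost, so they set no bound on that loss. The exons of *Hspa8* also overlap the snoRNA genes *Snord14c*, *Snord14d* and *Snord14e* on the same strand, by 86, 86 and 90 bases. For *Hspb1* (chr5:135887919-135889563, plus strand), 19.7% of the words were shared with *Hsp25-ps1*, whose counts came to between 2.86 and 21.3% of those of *Hspb1*. With the counts of *Hsp25-ps1* added, the log2 fold change of *Hspb1* was -0.44 and its adjusted p 0.748 by edgeR. The other genes, *Hspb8* (chr5:116408491-116422864, minus strand), *Hsph1* (chr5:149614287-149636376, minus strand), *Dnajb1* (chr8:83608193-83612653, plus strand) and *Hspb7* (chr4:141420779-141425311, plus strand), overlapped no other annotated gene and shared no such word.

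The question whether the rest of the chaperone network moved with these genes was addressed with 6 lists of 96 other genes, of which 84 were tested and 1 passed, a share close to the 1.28% called among all tested genes. That gene was *Hspb6*, which encodes HSP20, another muscle small heat shock protein. Its level was 52.9, 71.8, 55.5 and 61.0 CPM with vehicle and 14.4, 24.8, 22.1 and 31.1 CPM with NAM/PN. The conditions did not overlap, and *Hspb6* fell with a log2 fold change of -1.38 ± 0.28 (SE) and an adjusted p of 0.0132 by edgeR. That call was lost when vehicle 2, vehicle 4, NAM/PN 1 or any of pools 1 to 3 was left out (adjusted p up to 0.178), with log2 fold changes of *Hspb6* between -1.56 and -1.21 over the 12 fits that left out a library or a pool. *Hspb3*, which encodes a partner of HSPB2, was counted in 4 of 4 vehicle libraries (30, 22, 18 and 56 counts) and in 0 of 4 NAM/PN libraries, which makes it at least 9.58-fold lower against a floor of 3 counts per library, with an adjusted p of 0.146 by edgeR. *Cryaa* and *Hspb9*, which are known from the lens and the testis, had counts in 2 and 0 of the 8 libraries.

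Among the other HSP70 and HSP110 genes, 0 of 10 tested passed, and their median log2 fold change was 0.01. *Hspa4l*, an HSP110 relative of *Hsph1*, had the smallest p of that list, at -0.87 ± 0.33 (SE) with an adjusted p of 0.329 by edgeR, and it was called lower without NAM/PN 3 (-1.37, adjusted p of 0.0272) and without pool 3 (-1.41, 0.0453). The J-domain proteins, the partners of HSP70 to which *Dnajb1* belongs, had a median of -0.03 with 0 of 36 called, and the smallest p was that of *Dnajb12* (0.60 ± 0.29, adjusted p of 0.549). The nucleotide exchange factors and cofactors of HSP70 had a median of 0.21 with 0 of 12 called. Their smallest p was that of *Bag2*, at 0.63 ± 0.42 (SE) with an adjusted p of 0.761. HSP90 and its cochaperones had a median of 0.01 with 0 of 20 called, and *Nudc* had the smallest p (0.73 ± 0.21, adjusted p of 0.127). All 4 tested heat shock factors and inhibitors were below 0 with 0 called, among them *Hsf2* at -0.54 ± 0.22 (SE) with an adjusted p of 0.414. At an unadjusted p under 0.05, edgeR gave 1 of the other HSP70 and HSP110 genes, 0 J-domain proteins, 0 cofactors, 2 HSP90 genes and 1 heat shock factor gene, and after adjustment DESeq2 and voom each called 0 in all 5 lists.

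**Figure D3:**
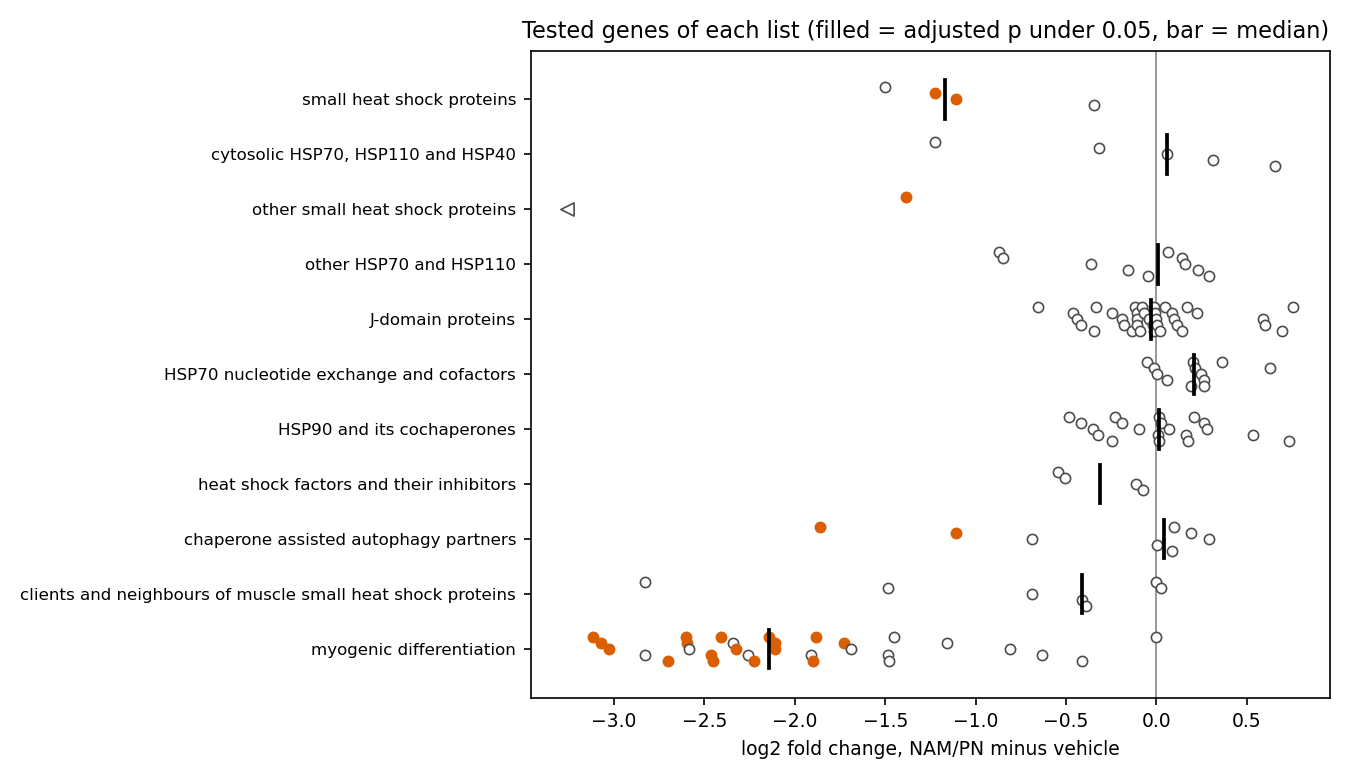
Log2 fold change (horizontal axis, NAM/PN minus vehicle) of every tested gene in the 2 groups of heat shock protein genes described here and in 9 further lists (rows); filled orange points have an adjusted p under 0.05 and black bars are medians of lists with at least 3 points. The open triangle is *Hspb3*, drawn at its bound of 9.58-fold lower because it was at 0 in all NAM/PN libraries. Called chaperone genes are small heat shock proteins, and the myogenic list lies to the left with 17 called genes.

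Small heat shock proteins work with muscle filaments and with BAG3, and these partners were described as well. Of 8 genes of chaperone assisted autophagy, 2 passed, namely *Hspb8* itself and *Synpo2*, which encodes a partner of BAG3 at actin filaments (-1.86 ± 0.28, adjusted p of 0.00123 by edgeR). *Bag3*, the cochaperone that binds HSPB8 directly, had 79.0, 116, 76.7 and 110.0 CPM with vehicle and 79.4, 90.2, 112 and 100.1 CPM with NAM/PN, overlapping throughout (log2 fold change of 0.001 ± 0.21, 95% interval from -0.44 to 0.44). Of 7 tested clients and neighbours of muscle small heat shock proteins, 0 passed in edgeR or DESeq2 and 1 (*Des*) passed in voom, while 5 had an unadjusted p under 0.05 in edgeR. *Des*, which encodes desmin, a client of αB-crystallin, was at -0.41 ± 0.18 (SE) with an adjusted p of 0.460, and *Ttn*, which encodes titin, was at -1.49 ± 0.39 (SE) with an adjusted p of 0.0736, or 0.000790 with pools as a block. It passed in 3 of 22 alternative fits, and its adjusted p was 0.551 with the robust fit, 0.230 with DESeq2 and 0.178 with voom (-0.97).

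*Cryab* and *Hspb8* fell in libraries in which genes of myogenic differentiation fell as well. All 31 tested genes of that list had log2 fold changes below 0, with a median of -2.14, and 17 of them were called lower. Among all tested genes, 0.995% were called lower. In the fit without pool 2, 9 genes of the list were called. The summed level of the list was between 3576 and 6330 CPM with vehicle and between 1345 and 2384 CPM with NAM/PN. *Myog*, the differentiation factor myogenin, had 679.7, 1042, 566 and 1428 CPM with vehicle and 108, 237, 173 and 277 CPM with NAM/PN (log2 fold change -2.22 ± 0.29, adjusted p of 0.000232 by edgeR). *Myh3*, *Myl1*, *Mylpf* and *Neb*, which encode sarcomere proteins, were at -2.33, -2.60, -2.41 and -1.88. The part of this change in that of *Cryab* and *Hspb8* was not tested. Markers of muscle stem cells and myoblasts had 0 of 9 called by edgeR (1 at an unadjusted p under 0.05; 0 by DESeq2 and 1, *Des*, by voom), with a median of -0.19 and summed levels between 2953 and 3432 CPM with vehicle and between 2384 and 2988 CPM with NAM/PN. Of the defining markers, *Pax7* was between 166 and 247 CPM with vehicle and at 198, 199.9, 196 and 97.3 CPM with NAM/PN. *Myod1* was between 1136 and 1561 CPM with vehicle and between 1038 and 1314 CPM with NAM/PN.

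Markers of other cell types were examined as well; the gate named above would remove endothelial, immune and fibro-adipogenic cells. Of the mural cell list, 3 of 8 genes were tested and *Acta2*, smooth muscle actin, which myoblasts also express, fell (-2.38 ± 0.29, adjusted p of 0.000147 by edgeR), while the summed level of the list was between 285 and 611 CPM with vehicle and between 95.9 and 156 CPM with NAM/PN. Of the Schwann cell list, 3 of 6 genes were tested and *Ncam1*, which muscle cells also express, fell (-1.22 ± 0.15, adjusted p of 0.000147), with summed levels from 1044 to 1347 CPM and from 471 to 573 CPM, most of them from *Ncam1*. The list median was -0.18, the value of *Ngfr*, with 2 tested genes below 0 and 1 above. *S100b* was at 0 in all libraries, and *Sox10* had 1 and 13 counts in vehicle 2 and 3 and 0 in the others. Of the endothelial list, 4 of 8 genes were at 0 in all libraries and the sum was between 3.46 and 19.4 CPM with vehicle and between 9.85 and 29.5 CPM with NAM/PN. The immune list had 6 of 8 genes at 0 and a sum of at most 7.58 CPM, and the fibro-adipogenic list had 3 of 8 at 0 and sums between 78.4 and 125 CPM with vehicle and between 41.3 and 112 CPM with NAM/PN. *Egfl7* (1.02 ± 0.59), *Cd68* (0.43 ± 1.13) and *Cd34* (-0.71 ± 0.27, a gene that MuSCs also express) had the smallest p of these 3 lists, and edgeR, DESeq2 and voom called 0 genes in each of them, where *Cd34* alone had an unadjusted p under 0.05. Without any call, *Cd68* ranged from 0.09 to 1.09 and *Egfl7* from 0.33 to 1.44 over the alternative fits. *Cd34* was called lower without NAM/PN 4 (-1.06, adjusted p of 0.0266 by edgeR), without pool 4 (-1.19, 0.0281) and with vehicle 3 and NAM/PN 4 both left out (-0.99, 0.0348). Genes of the dissociation response, which rise when tissue is digested and to which stress-inducible HSP70 is often added, had 0 of 11 called by edgeR, DESeq2 or voom (1 at an unadjusted p under 0.05) and a median of -0.11, with *Ier3* at 0.99 ± 0.45 (SE). The part of these markers in the fall of *Cryab* and *Hspb8* was not tested.

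Whether members changed in proportion to each other was examined with log2 ratios of counts within each library for 7 pairs, which do not depend on normalization. The test was a two-sided exact permutation test over the 70 assignments of 4 and 4 libraries, whose smallest possible p is 0.0286. A single pair at that minimum could not pass after Benjamini-Hochberg adjustment over the 7 pairs, and sign changes within the 4 pools allow no p below 0.125, so the differences are given as descriptions. The ratio of *Hspb8* to *Bag3* was 1.77, 2.22, 2.57 and 2.5 with vehicle and 0.77, 1.41, 0.96 and 1.49 with NAM/PN, without overlap and lower in 4 of 4 pools. Its difference was -1.11 on the log2 scale (exact p = 0.0286, adjusted 0.1; 0.125 within pools). The ratio of *Cryab* to *Hspb1* was lower by 0.78 on average and in 4 of 4 pools (difference -0.78, exact p = 0.0571, adjusted 0.1).

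*Hspb1* against *Hspa8* gave a difference of -1.06, also lower in 4 of 4 pools (exact p = 0.0571, adjusted 0.1). The ratio of *Cryab* to *Myog* was -1.52, -2.40, -2.33 and -2.76 with vehicle and -0.54, -1.49, -1.08 and -1.73 with NAM/PN. It was thus higher with NAM/PN in 4 of 4 pools, by 1.04 on average (exact p = 0.0571, adjusted 0.1), since *Myog* had fallen by more than *Cryab*. The neighbours *Cryab* and *Hspb2* gave a difference of 1.30 (exact p = 0.543), which rested on NAM/PN 1 with 0 counts of *Hspb2* and was -0.20 without that library. The inducible pair *Hspa1a* and *Hspa1b* had ratios from -5.17 to 0.36 among vehicle libraries, and its difference of -2.39 (exact p = 0.343, adjusted 0.400) rested on the offset of 0.5 counts in NAM/PN 1, 2 and 4, where *Hspa1a* had 0 counts. *Hspa8* against *Hspa1b*, the constitutive against an inducible HSP70, gave 1.74 (exact p = 0.114, adjusted 0.160).

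**Figure D4:**
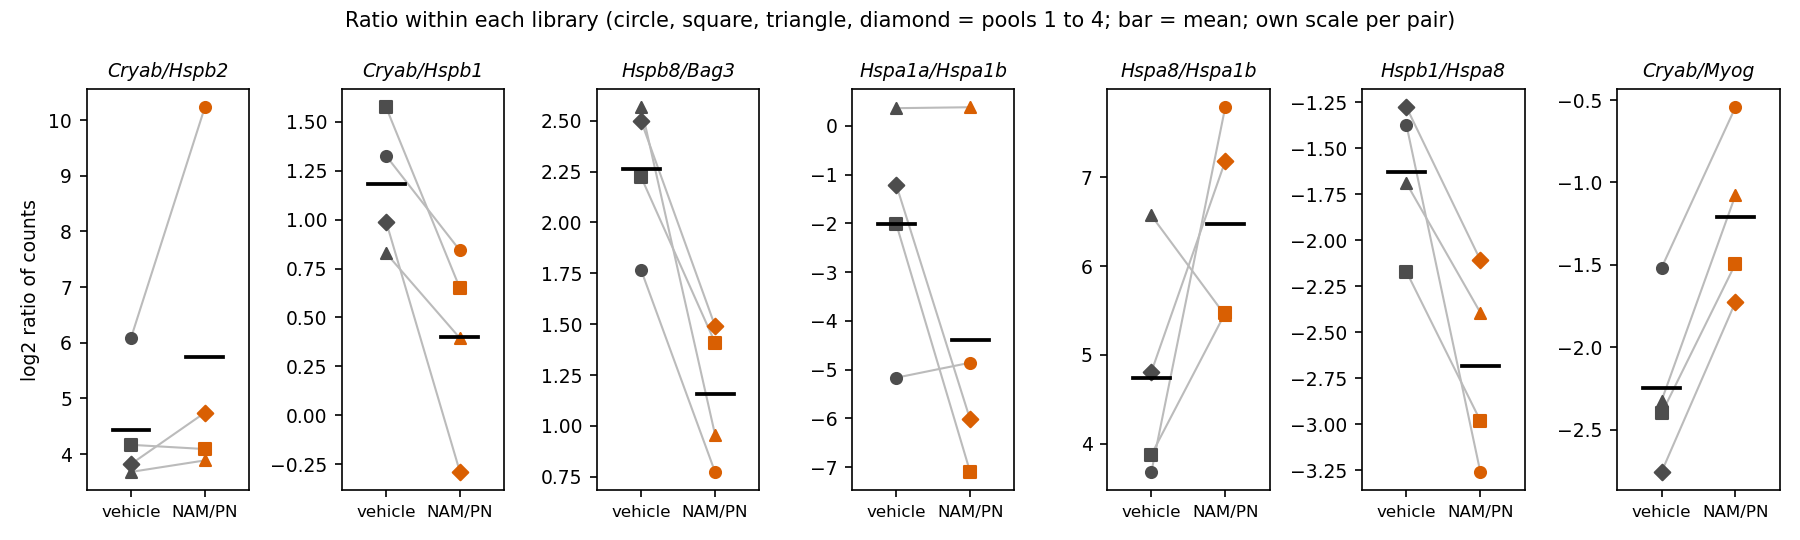
Log2 ratio of the counts of 2 genes within each library (vertical axes, own scale for each pair) for 7 pairs. Dark symbols are vehicle, orange symbols NAM/PN, symbol shapes are pools, grey lines join a pool and black bars are means of 4 libraries. *Hspb8* over *Bag3* is the pair without overlap, and *Cryab* over *Hspb2* is set by the single high NAM/PN 1 value of 10.23.

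The genes with profiles most like those of 4 members were found among 9211 genes at or above 3 in average log2 CPM, by the root mean square difference of log2 CPM centred on each gene's own mean over 8 libraries. For *Cryab* they were *Vegfc* (0.17), *App* (0.21), *Col5a2* (0.25), *Ifitm3* (0.27) and *Lgals3* (0.27). For *Hspa8* they were *Tead2* (0.11), *Lsm4* (0.11), *Psat1* (0.11), *Ano8* (0.12) and *Gstcd* (0.12). The nearest genes to *Cryab* were farther from it than those of *Hspa8*, and neither set held another chaperone gene of the lists.

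For *Hspb1* the nearest genes were *Slc25a11* (0.11), *Ubl4a* (0.16), *Fbxl18* (0.18), *Fzr1* (0.19) and *Zfand5* (0.20). For *Hsph1* they were *Eif4h* (0.10), *Mta1* (0.10), *Pgrmc1* (0.11), *Chsy1* (0.12) and *Ctdnep1* (0.12), which share its low value in vehicle 3. These distances describe 8 libraries of 2 conditions that share their mice, and carry no test.

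**Figure D5:**
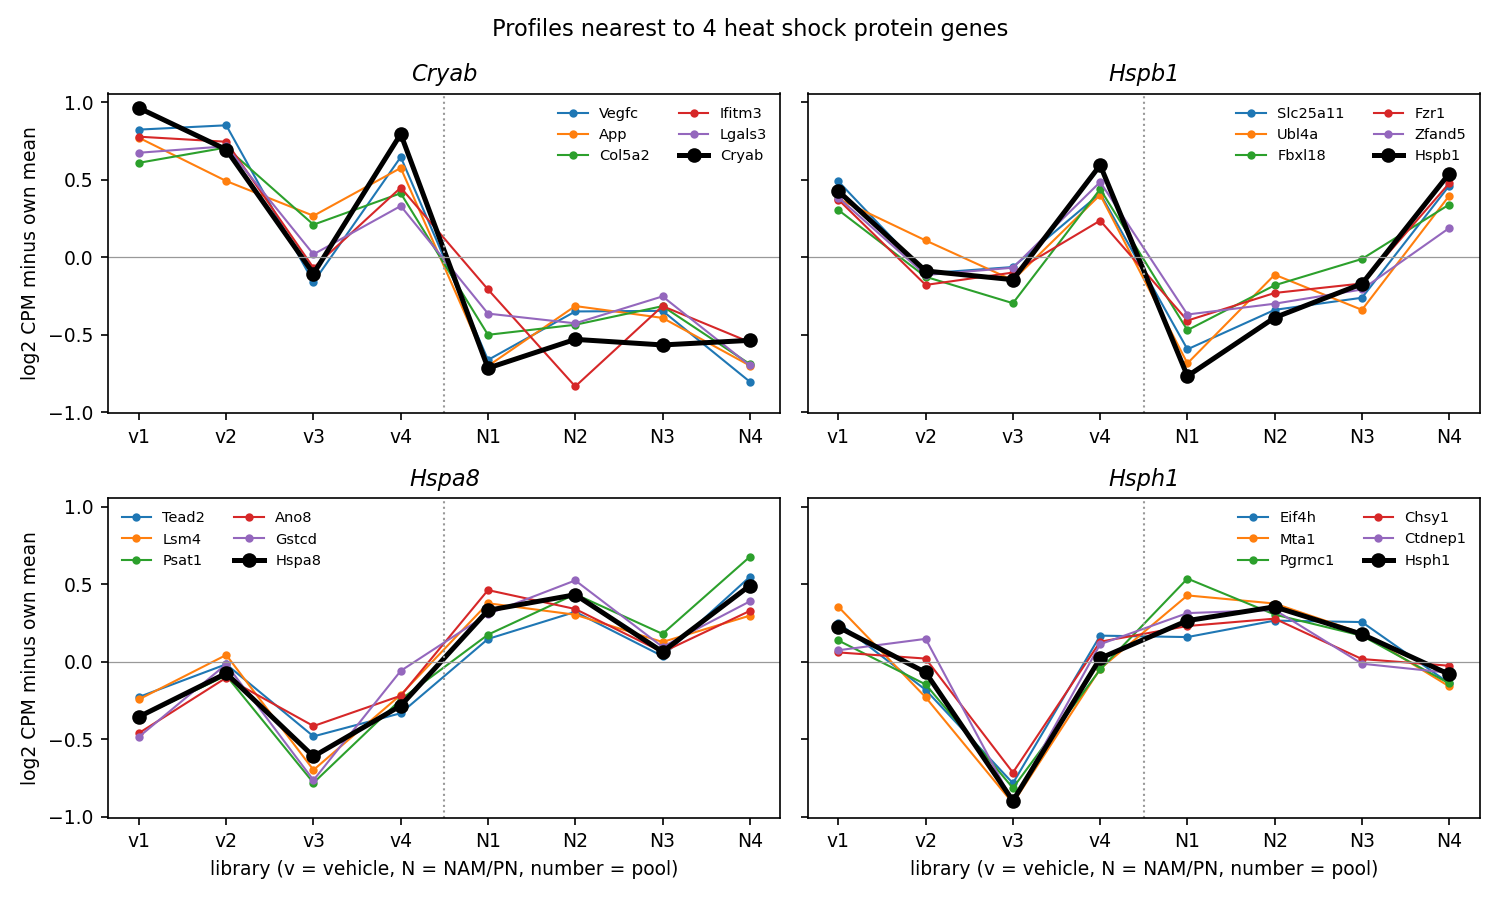
Log2 CPM minus the gene's own mean (vertical axes) in the 8 libraries (horizontal axes, v for vehicle, N for NAM/PN, number for the pool; the dotted line separates conditions) for *Cryab*, *Hspb1*, *Hspa8* and *Hsph1* (thick black) and the 5 nearest genes of each (thin lines). *Cryab* steps down and *Hspa8* steps up between conditions, whereas *Hspb1* and *Hsph1* vary mainly among libraries, *Hsph1* with its lowest value in vehicle 3.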

How the data were processed

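RNA from 8 libraries of cultured MuSCs, made with a QuantSeq 3′ kit, was analysed. The authors deposited unnormalized read counts for each gene, made by alignment to GRCm38 with RNASTAR and counting with htseq-count (HTSeq 2.16.2 in the submitters' processing notes); annotation release, strand setting and treatment of multiply aligned reads were not given in the sources used here. Symbols were found for 55141 of 55487 identifiers in GENCODE M21 on GRCm38. Library totals were between 6472484 and 10163101 counts, and floors of 3 counts cover counting error only. The files hold no column of any other sample.

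Genes were filtered with filterByExpr (minimum count 10, minimum total 15), scaled with TMM factors and compared between NAM/PN and vehicle by the quasi-likelihood test of edgeR, with Benjamini-Hochberg adjustment over 12060 genes and a threshold of 0.05, in R 4.3.3 with edgeR 4.0.16. Standard errors are the log2 fold change divided by the square root of F. Log2 CPM used a prior count of 2 and ratios an offset of 0.5 counts. The pool numbers pair the libraries because the labels use the same number for the same pool of mice; deviations from condition means correlated at -0.03 to 0.03 within pools, and the fit with pools as a replicate block was an alternative. Other alternatives were DESeq2 1.42.0, its size factors, voom in limma 3.58.1, a robust fit, no filter, a threshold of 0.10, *Hspa1a* and *Hspa1b* summed, the ribosomal RNA gene left out, and each library or pool left out in turn. Every voom fit used library quality weights and a correlation within pools, so it differs from the main fit in more than the tool. Leaving out vehicle 3 with NAM/PN 4, and summing *Hspb1* with *Hsp25-ps1*, were chosen after seeing the data. Libraries of a condition differed from each other by far more than sampling noise (the smallest chi-square divided by its degrees of freedom was 22.8). The gene test was tested on simulated data before use.

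The members and all lists were chosen with earlier results of these data known. Named genes are the members, up to 5 called genes of each list by p or else the gene with the smallest p, the 5 nearest profiles of 4 members, *Myog*, and the genes of the 7 pairs; *Hspb3*, *Ngfr*, *Sox10*, *S100b*, *Pax7*, *Myod1*, *Cryaa*, *Hspb9*, *Gm20481* and *Hsp25-ps1* were named after their values were seen. *Snord14c*, *Snord14d* and *Snord14e* were added for their overlap with *Hspa8*. Promoter sequences are from RefSeq. Python 3.11.15 and matplotlib 3.10.9 served for the sequence searches and plots.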

Additional observations from a re-analysis of the deposited data

Results flagged for a closer look

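Of 76 groups of 4 libraries examined for a library that stands apart from the other 3 by Dixon's criterion, 5 had such a library. At 1 in 20, 3.8 would be expected for independent, normally distributed values. These groups share libraries, and for *Hspb7* and *Hspa1a* the NAM/PN libraries at 0 fix the ratio of the criterion at 1. The 3.8 is therefore no valid chance rate here. *Hspb7* had 0.557 CPM in NAM/PN 2 and 0 in the other NAM/PN libraries. *Hspa1a* had 9.75 CPM in NAM/PN 3 and 0 in the other NAM/PN libraries. *Hspa4l* had 98.9 CPM in vehicle 2, against 74.7 to 78.6 CPM in the other vehicle libraries. *Synpo2* had 10.7 CPM in NAM/PN 4, against 18.6 to 19.9 CPM in the other NAM/PN libraries. The log2 ratio of *Cryab* to *Hspb2* was 10.23 in NAM/PN 1, where *Hspb2* had 0 counts, against 3.89 to 4.74 in the other NAM/PN libraries.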

How the results depend on the processing

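With pools as a replicate block, *Cryab* (adjusted p of 0.00866) and *Hspb8* (0.00152) stayed called and 156 genes were called in all, against 154, of which 130 were shared; the block changed the call of *Ttn* and of none of the 10 heat shock genes. Of the 10 heat shock genes 2 were called, and 3 with DESeq2, no filter, voom, the robust fit or a threshold of 0.10 through *Hspa8*; it ranged from 0 to 2 when a library or pool was left out. All genes called numbered 289 with DESeq2, 366 without the filter and 244 at a threshold of 0.10. With voom, which also weighted libraries by quality and used the correlation within pools, they numbered 232. They numbered 236 with vehicle 3 and NAM/PN 4 both left out. When a library or pool was left out, they ranged from 42 (without pool 2) to 177 (without NAM/PN 4). Of the 96 network genes 1 was called, 2 with DESeq2 (*Hspb3* and *Hspb6*) or without the filter (*Hspa4l* and *Hspb6*), and 0 to 2 with a library or pool left out, and of the myogenic genes 17, from 15 with the robust fit and 16 with DESeq2 to 19 with the block, 20 with voom and 22 without the filter, or 9 to 18 with a library or pool left out. Signs turned for genes near 0. *Bag3* was at -0.0015 with DESeq2 size factors, -0.0016 with DESeq2, -0.013 without the filter, -0.0902 with voom, -0.0017 without the ribosomal RNA gene and -0.12 with vehicle 3 and NAM/PN 4 left out, and between -0.18 and 0.14 with a library or pool left out. *Dnajb1* was at -0.11 with voom, -0.26 with vehicle 3 and NAM/PN 4 left out and between -0.10 and 0.27 with a library or pool left out. *Hspa1a* was at 0.0488 with vehicle 3 and NAM/PN 4 left out and between -7.69 and 0.44 with a library or pool left out, where the lowest fitted value is set by NAM/PN libraries at 0 and is no bound. The log2 ratio of *Cryab* to *Hspb2* was -0.20 without NAM/PN 1 and between -0.20 and 1.92 with a library or pool left out. The causes were not tested. *Hspb7* and *Hspa1a* were each at 0 in 3 of 4 NAM/PN libraries, so their values are the least certain.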
